A study of Homo sapiens with 12 samples.

Results

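The 78 genes named MRPL or MRPS, which encode proteins of the mitochondrial ribosome, were followed in 2 Ewing sarcoma cell lines that carry doxycycline-inducible c-Jun and c-Fos. They were chosen by name alone: every gene of the count table whose symbol is MRPL or MRPS, a number and at most one letter from A to C, 78 of 58721 genes. Ewing sarcoma is a bone and soft tissue tumour driven by a fusion of EWSR1 with an ETS-family gene, and EW8 and TC71 are established lines from such tumours. Each line had been given, by lentivirus, a Tet-On 3G transactivator driven by the EF1 alpha promoter and a TRE3G promoter from which c-Jun and c-Fos are made together, joined by a self-cleaving 2A peptide. The 4 groups were EW8 vehicle, EW8 doxycycline, TC71 vehicle and TC71 doxycycline, with 3 libraries each and 72 h of DMSO or of doxycycline at 2000 ng/ml. The labels call the vehicle groups WT and the doxycycline groups AP1 overexpression, but the cells of both groups carried the inducible system. No doxycycline-treated library without the transgenes was analysed here, so an effect of doxycycline itself and one of c-Jun and c-Fos cannot be told apart. Nothing in the labels says that the 3 libraries of a group came from separate cultures, so the p-values measure only the spread between these libraries.

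Mitochondria make a small set of respiratory chain proteins on their own ribosomes. The ribosomal RNAs of these ribosomes are encoded by mitochondrial DNA, while every ribosomal protein is encoded in the nucleus, made in the cytosol and imported. Doxycycline is a tetracycline that binds bacterial ribosomes and is known to inhibit the related mitochondrial ones as well, so the question put to these genes was whether their messengers rise in the treated cells. Of the 78 genes, 51 encode proteins of the large subunit, which joins the amino acids, and 26 encode proteins of the small subunit, which reads the messenger. MRPS36, now assigned to the alpha-ketoglutarate dehydrogenase complex, was counted with neither. MRPS18A and MRPS30 carry small-subunit names but sit in the large subunit and were counted there.

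The libraries held 42860665 to 60853649 counts, and all 78 genes passed the filter on low counts, with at least 15 counts in every library. Levels are given as CPM, counts divided by the TMM-scaled library size. Both transgenes were induced: JUN did not exceed 25.3 CPM in the 6 vehicle libraries and lay between 422 and 814 CPM in the 6 doxycycline libraries. Of the Ewing sarcoma markers, FLI1 lay between 40.3 and 87.3 CPM and NR0B1 between 99.4 and 237 CPM over all 12 libraries. With doxycycline 4 of the 7 markers fell and 1 rose in EW8, the lowest at -1.40 on the log2 scale. In TC71, 3 fell and 2 rose, by edgeR's test in both lines. Of all genes tested, 22% fell and 21.9% rose in EW8, and 20.4% and 25.1% in TC71. Under vehicle 3 markers were higher and 4 lower in TC71 than in EW8, beside 28.2% and 33.5% of all genes tested. Of 5 markers of other cell types, CD3E and ALB did not pass the filter, whereas the leukocyte gene PTPRC lay between 59.6 and 77.4 CPM in every EW8 library and at or below 0.15 CPM in every TC71 library. The endothelial gene PECAM1 rose with doxycycline, from 6.45 to 8.01 CPM under vehicle to 32.7 to 40.1 CPM in EW8 and from 0 to between 3.23 and 4.27 CPM in TC71, and the epithelial gene EPCAM rose in TC71, from 0.229 to 1.19 CPM to 11.3 to 12.6 CPM; the part of such cells or genes in the results was not tested. The first TC71 vehicle library stood apart, with 25611 CPM on the 13 protein-coding genes of mitochondrial DNA against 11167 and 11757 CPM in the other two, so results that move without it are given both ways.

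Several short sequences bound by transcription factors stood in the promoters of these genes. They are shown for what the promoters of the class share. RefSeq promoter windows of GRCh38.p14, 250 bases before to 50 bases after the start, were at hand for 69 of the 78 genes, as 85 windows. The letters CCGGAAG, the core bound by ETS-family factors such as GABP, stood on either strand in 38.8% of the members' windows, against 10.3% of all 35116 windows and 17.7% of windows of genes with a mean CPM of at least 10. AAGATGG, the core of sites for YY1, stood in 31.8%, against 5.84% and 7.56%. GCGCANGCG, found in sites for nuclear respiratory factor 1, stood in 17.6%, against 7.52% and 13.6%, and the E-box CACGTG in 10.6%, against 7.26% and 9.7%. The AP-1 site TGANTCA stood in 1 of the 85 windows (1.18%), that of MRPS35, against 7.71% and 4.87%.

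Stretches of 5 members that end at the base before the RefSeq start site show these letters, with the match in capitals. They were chosen after the values were seen, to show ETS, NRF1, YY1 and AP-1 letters, and none holds an E-box. MRPL48 (chr11:73787774-73787873, plus strand) holds an ETS core, MRPS9 (chr2:105037969-105038068, plus strand) the NRF1 letters, and MRPL47 (chr3:179604639-179604738, minus strand) both a YY1 and an ETS core. MRPS34 (chr16:1773135-1773234, minus strand) holds 3 ETS cores, and MRPS35 (chr12:27710612-27710831, plus strand) the only AP-1 match.
MRPL48: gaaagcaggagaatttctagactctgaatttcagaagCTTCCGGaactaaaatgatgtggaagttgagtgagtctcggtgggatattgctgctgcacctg
MRPS9: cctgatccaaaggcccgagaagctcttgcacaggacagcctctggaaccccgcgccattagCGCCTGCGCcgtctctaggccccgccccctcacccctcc
MRPL47: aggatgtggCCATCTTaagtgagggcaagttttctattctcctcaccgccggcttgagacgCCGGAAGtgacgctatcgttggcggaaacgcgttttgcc
MRPS34: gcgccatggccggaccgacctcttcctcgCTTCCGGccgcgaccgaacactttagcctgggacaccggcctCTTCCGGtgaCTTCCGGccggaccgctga
MRPS35: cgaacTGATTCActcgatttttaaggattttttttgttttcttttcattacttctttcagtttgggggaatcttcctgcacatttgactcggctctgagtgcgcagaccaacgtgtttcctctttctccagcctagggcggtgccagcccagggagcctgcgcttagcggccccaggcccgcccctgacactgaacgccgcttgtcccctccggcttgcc
Of the 45 ETS matches in members, 68.9% began in the 100 bases before the start, against 56.0% of those in promoters of abundant genes, and of the 18 NRF1 matches 38.9%, against 56.4%. Of the 29 YY1 matches, 58.6% began after the start, all 17 of these along the gene's strand, against 48.8% in abundant genes, where 42.7% did so along the gene's strand. No difference in place was tested. The doxycycline responses are given with and without each kind of letters as a description. The 30 genes with an ETS core had a median log2 fold change of -0.16 in EW8 and -0.21 in TC71, and the 39 without one -0.16 and -0.22. With the YY1 letters the medians were -0.16 and -0.28, and without them -0.16 and -0.20. The 14 genes with the NRF1 letters had medians of -0.058 in EW8 and -0.24 in TC71, and the 55 without them -0.16 and -0.21. The 9 genes with an E-box had 0.020 and -0.19, and the 60 without one -0.16 and -0.22. A match is a run of letters and not a measured binding site.

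With doxycycline, the summed level of the 78 genes was lower in both lines. It was 4631, 4677 and 4669 CPM in the EW8 vehicle libraries and 4170, 4100 and 4112 CPM in the EW8 doxycycline libraries. In TC71 it was 5195, 5272 and 5513 CPM under vehicle and 4585, 4525 and 4437 CPM with doxycycline. In each line every doxycycline library lay below every vehicle library, and the same held for each subunit alone. Without any scaling between libraries, the share of all counts went from 0.480% ± 0.00102 (SD, n = 3) to 0.409% ± 0.00268 in EW8 and from 0.544% ± 0.00993 to 0.432% ± 0.00178 in TC71. Fewer cells that express a gene and less RNA per cell cannot be told apart in these bulk libraries.

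**Figure D1:**
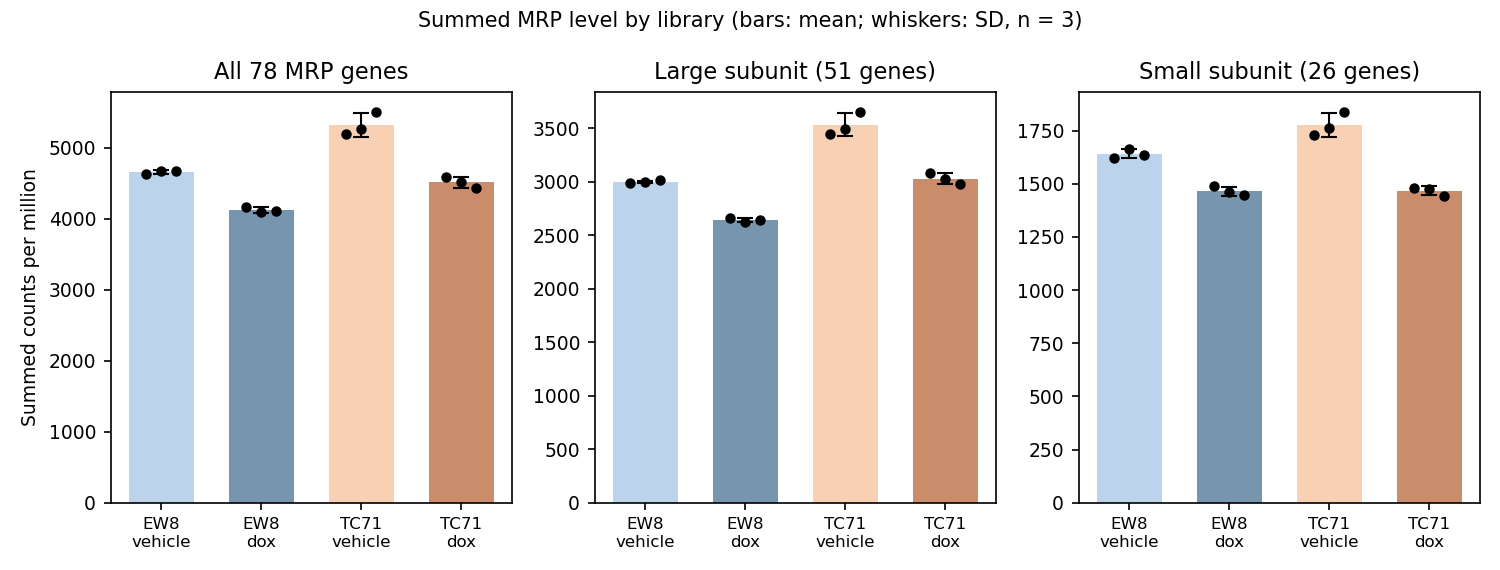
Summed level of the mitochondrial ribosomal protein genes in each library, in CPM, for all 78 genes, the 51 of the large and the 26 of the small subunit. Points are libraries, bars means and whiskers SD (n = 3); in each panel the 3 doxycycline libraries of a line lie below its 3 vehicle libraries.

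In EW8, 31 of the 78 genes fell, 5 rose and 42 did not pass edgeR's quasi-likelihood test at an adjusted p under 0.05. Over all 21013 genes tested, 22% were called lower and 21.9% higher, and over the 10094 genes with a mean CPM of at least 10, 35.6% and 27%. The share of members called lower, 39.7%, was thus close to that of other abundant genes, while the share called higher, 6.41%, was below it. The median log2 fold change of the members was -0.15, beside -0.03 for all genes tested and -0.07 for the abundant ones. Past an absolute log2 fold change of 1, 1 member was higher and 0 were lower, beside 11.4% and 3.38% of all genes tested. The count of 31 depended on single libraries: it was 18 without the third vehicle library, 18 without the first doxycycline library and 17 without the second. Calls over all genes also became fewer, from 4618 lower to 3418, 3341 and 3281 in these settings. The members' median minus that of all genes was -0.13, -0.11 and -0.11 there, beside -0.12 with all libraries.

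In TC71, 42 of the 78 genes fell and 0 rose by edgeR's quasi-likelihood test; at an unadjusted p under 0.05, 1 was higher and 46 lower, and DESeq2 called 0 higher and 48 lower. Over all genes tested 20.4% were called lower and 25.1% higher, and over the abundant genes 32.9% and 34%. The share of members called lower was 53.8%. Their median log2 fold change was -0.20, beside 0.00 for all genes tested and -0.02 for the abundant ones. No member passed an absolute log2 fold change of 1 (0 higher and 0 lower), beside 12.3% and 3.67% of all genes tested. Without the first vehicle library, 52 members fell and their median was -0.31, with 23.9% of all genes then called lower.

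Most members that fell in EW8 also fell in TC71. These comparisons share no library, but both come from the 1 fit over all 12, with a common filter, scaling and estimate of the spread. Of the members called lower, 29 were called in both lines, 93.5% of the 31 in EW8 and 69.0% of the 42 in TC71; among the abundant genes the corresponding shares were 67.7% and 73.1%. Called or not, 57 of the 78 had a negative log2 fold change in both lines and 10 a positive one. Across the 78 genes Pearson's r between the log2 fold changes of the lines was 0.574 (rho 0.625), and across the 10094 abundant genes 0.838 (rho 0.749). Genes are not independent replicates, and these values describe the libraries only. Of the 29 genes, 17 belong to the large and 12 to the small subunit, and their median log2 fold changes were -0.34 in EW8 and -0.34 in TC71.

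**Figure D2:**
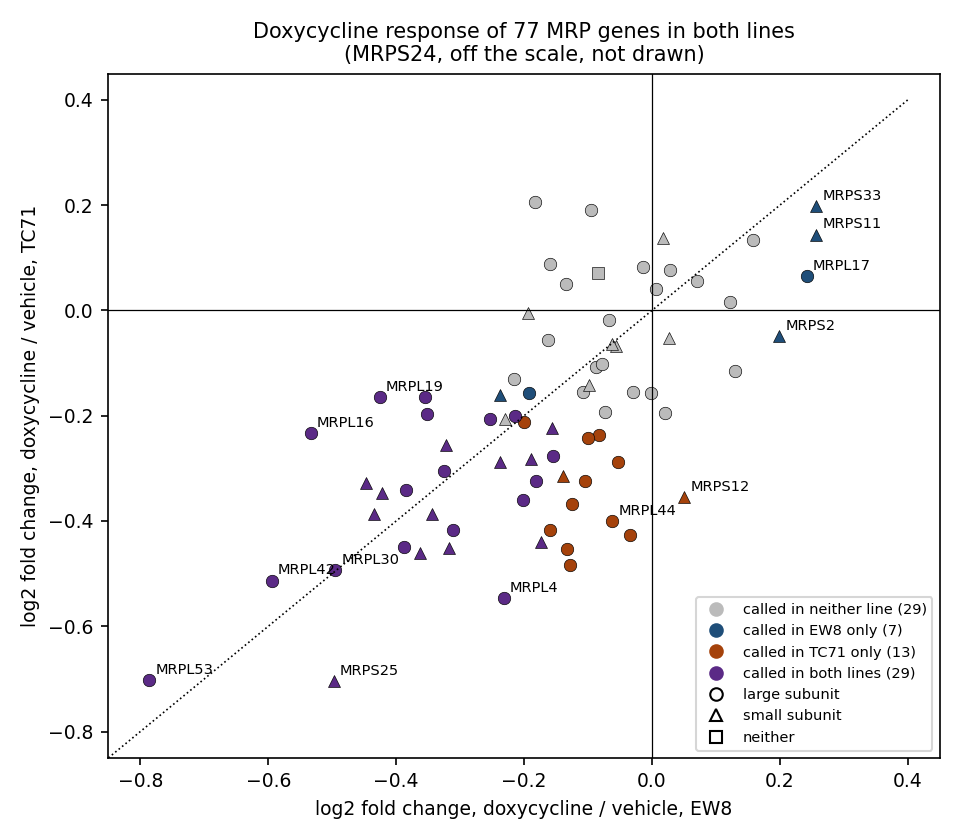
Log2 fold change with doxycycline in EW8 (horizontal) and TC71 (vertical) for 77 of the 78 genes, each point 1 gene, shaped by subunit and coloured by the line in which edgeR's test called it; the dotted line marks equal change. Most points lie left of and below 0; MRPS24, higher in EW8 by 2.29, is counted in the legend but lies off the scale.

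MRPL42 (ENSG00000198015.12, chr12:93467488-93516213, plus strand, GRCh38), a mitochondria-specific protein of the large subunit, fell in both lines. It lay at 123, 99.2 and 116 CPM in EW8 vehicle and at 77.3, 70.7 and 75.5 CPM with doxycycline, and at 135, 121 and 115 CPM in TC71 vehicle and 84.1 to 90 CPM with doxycycline. EW8 gave a log2 fold change of -0.59 with SE 0.077 and TC71 one of -0.51 with SE 0.077 (edgeR adjusted p = 4.78e-06 and 2.2e-05). The groups did not overlap in either line.

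MRPS25 (ENSG00000131368.7, chr3:15042460-15065335, minus strand), a mitochondria-specific protein of the small subunit, lay at 27.2, 31.1 and 30.5 CPM in EW8 vehicle and 23.3, 19.4 and 20.2 CPM with doxycycline. In TC71 it lay at 49.3, 37.5 and 38.1 CPM under vehicle and 25.3, 26.5 and 24.8 CPM with doxycycline. On the log2 scale it fell by 0.50 (SE 0.11, edgeR adjusted p = 0.000901) in EW8 and by 0.70 (SE 0.11, adjusted p = 2.31e-05) in TC71. The first TC71 vehicle library was the highest of the 12, and without it the TC71 log2 fold change was -0.65, still called by edgeR.

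MRPL48 (ENSG00000175581.13, chr11:73787316-73865133, plus strand), whose promoter is printed above with its ETS core, encodes a protein of the large subunit. It lay at 38.3, 33.3 and 37 CPM in EW8 vehicle against 29.4, 25.9 and 27.7 CPM with doxycycline, and at 40.8, 42.6 and 44.6 CPM in TC71 vehicle against 30.3, 30.7 and 32.7 CPM. It fell by 0.39 and 0.45 (edgeR adjusted p = 0.00064 and 0.000134), and the test of the difference between the lines gave -0.06 with SE 0.11 (adjusted p = 0.788). No doxycycline library reached its line's vehicle libraries.

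MRPL30, a large subunit protein with bacterial relatives, lay at 157, 148 and 150 CPM in EW8 vehicle and 100, 106 and 116 CPM with doxycycline, and at 77.4, 83 and 84.5 CPM in TC71 vehicle and 59.5, 55.4 and 59.1 CPM with doxycycline. It fell by 0.50 and 0.49 on the log2 scale (edgeR adjusted p = 3.97e-06 and 4.38e-06). MRPL53 had the lowest fold change in EW8, -0.79 (SE 0.25, edgeR adjusted p = 0.0167), and -0.70 in TC71 (SE 0.27, adjusted p = 0.0413). It was counted at only 0.842 to 4.35 CPM, and its calls were lost in 3 of 18 alternative settings in EW8 and in 7 of 18 in TC71. All coding bases of MRPL30 and MRPL53 are also in exons of another gene, a limit described further on with MRPS24. MRPS27, a small subunit protein of the pentatricopeptide repeat family, was chosen after its values were seen as an abundant example: it went from 191, 191 and 195 CPM to 146, 145 and 158 CPM in EW8 and from 160, 164 and 176 CPM to 129, 115 and 119 CPM in TC71.

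**Figure D3:**
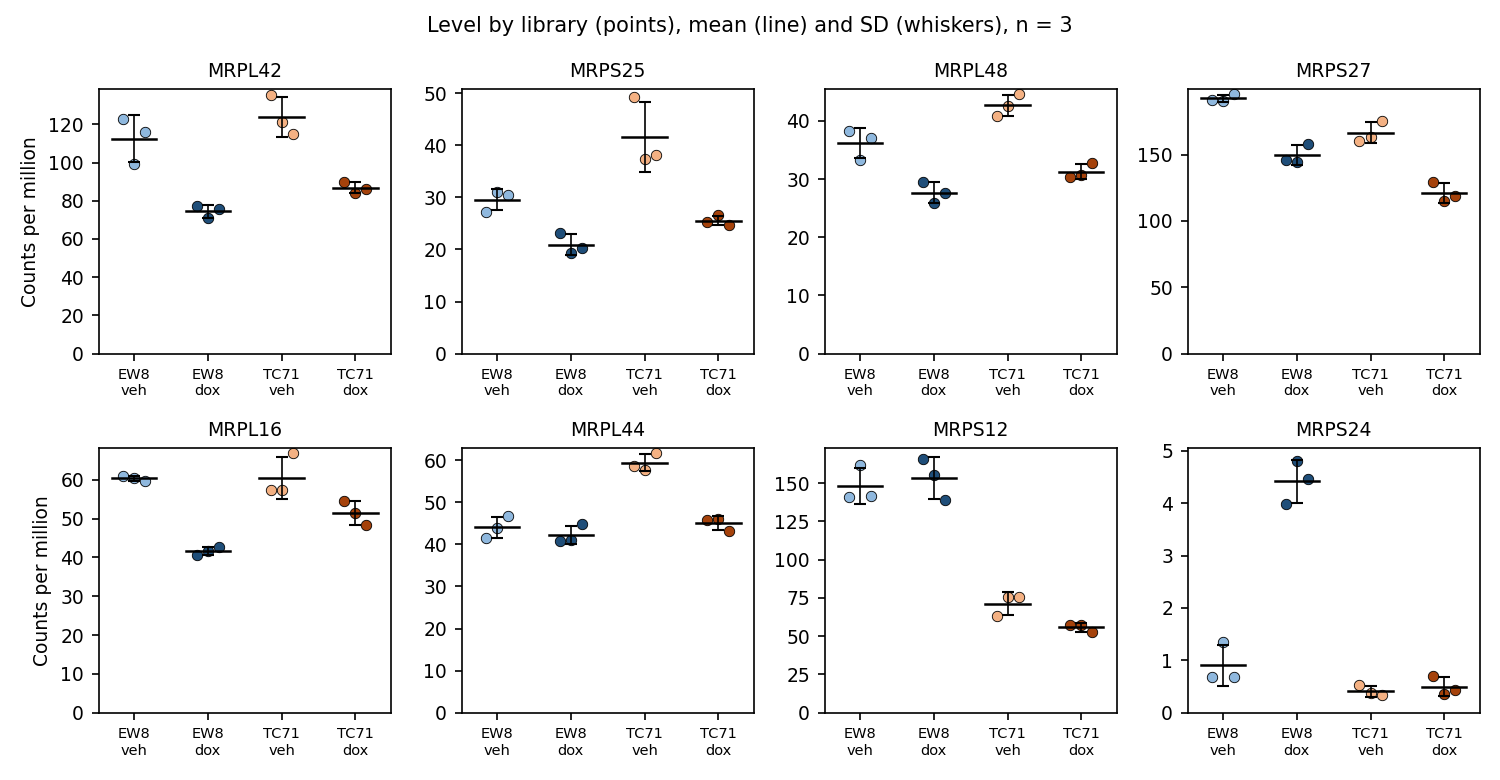
Level of 8 mitochondrial ribosomal protein genes in CPM (vertical axes from 0) in the 4 groups; points are libraries, lines means and whiskers SD (n = 3). In the top row the 3 doxycycline libraries lie below the vehicle libraries in both lines; in the bottom row the lines differ, and MRPS24 stands out by its low level and its rise in EW8 alone.

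By subunit, the share called lower in EW8 was 35.3% for the large subunit, near the 35.6% of abundant genes, and 50% for the small one. In that line 18 of the 51 large subunit genes fell and 1 rose, with a median log2 fold change of -0.13, and 13 of the 26 small subunit genes fell and 4 rose, with a median of -0.18. In TC71, 28 of 51 (54.9%) and 14 of 26 (53.8%) fell and 0 rose, against 32.9% of abundant genes called lower, with medians of -0.20 and -0.24. Genes whose proteins have a bacterial relative at the same place and genes for mitochondria-specific proteins had medians of -0.10 and -0.15 in EW8 and -0.19 and -0.21 in TC71 within the large subunit. Within the small subunit the medians were -0.11 and -0.24 in EW8 and -0.22 and -0.30 in TC71. These classes hold 29, 22, 16 and 10 genes, and no difference between them was tested.

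MRPS12, the small subunit protein at the decoding centre, did not pass the test in EW8, at 141, 162 and 142 CPM under vehicle and 166, 155 and 139 CPM with doxycycline. In TC71 it fell from 62.9, 75.7 and 75.4 CPM to 57.3, 57.6 and 52.6 CPM, by 0.35 on the log2 scale (SE 0.084, edgeR adjusted p = 0.00186). MRPL11, a protein of the factor-binding stalk base, fell in TC71 by 0.42 (SE 0.064, edgeR adjusted p = 2.74e-05) and had a log2 fold change of -0.16 in EW8 (SE 0.064, adjusted p = 0.0523). MRPL12, the stalk protein that recruits translation factors, did not pass the test in either line. Its libraries overlapped, at 11.3 to 16.5 CPM and 11.1 to 17.1 CPM in EW8 and 20.4 to 29.7 CPM and 18.9 to 25.1 CPM in TC71.

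Of the 3 relatives of bacterial ribosomal protein S18, whose responses were not tested against each other, MRPS18B fell in both lines, from 94.3, 102 and 101 CPM to 80.3, 79.1 and 74.9 CPM in EW8 and from 80.8, 87.6 and 89.5 CPM to 65.7, 67.8 and 63.8 CPM in TC71 (edgeR adjusted p = 0.000139 and 3.91e-05). MRPS18A fell in TC71 by 0.37 on the log2 scale (SE 0.10, edgeR adjusted p = 0.00763) and had -0.12 in EW8 (adjusted p = 0.374). MRPS18C had 0.03 in EW8 and -0.05 in TC71, with adjusted p = 0.897 and 0.788. Of MRPL37 and MRPS30, large subunit proteins that are related to each other, MRPL37 fell in both lines by 0.18 and 0.32 (edgeR adjusted p = 0.008 and 4.08e-05). MRPS30 had -0.03 and -0.16 and passed the test in neither (adjusted p = 0.814 and 0.15). The EW8 call for MRPL37 was lost in 4 of 18 settings, each leaving out one EW8 library.

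Of the 5 genes that rose in EW8, MRPL17 is the only one of the large subunit. It went from 46.6, 47.8 and 50.4 CPM to 56.1, 58.5 and 56.7 CPM (log2 fold change 0.24, SE 0.065, edgeR adjusted p = 0.00527). The small subunit genes MRPS33, MRPS11 and MRPS2 rose by 0.26, 0.26 and 0.20 on the log2 scale (edgeR adjusted p = 0.015, 0.0191 and 0.0343). In TC71 the 4 genes had 0.06, 0.20, 0.14 and -0.05 for MRPL17, MRPS33, MRPS11 and MRPS2, none of which passed the test, and none of the 4 passed the test of the difference between the lines. With scaling by library size alone only 2 members rose in EW8.

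MRPS24 (ENSG00000062582.13, chr7:43866558-43869893, minus strand) rose in EW8 from 30, 62 and 38 counts to 223, 243 and 195 counts, 4.89-fold (log2 fold change 2.29, SE 0.33, edgeR adjusted p = 1.76e-05). In TC71 it was counted at 15 to 29 reads in each library and did not pass the test (log2 fold change 0.27, SE 0.38, edgeR adjusted p = 0.611). No member had a larger absolute log2 fold change with doxycycline, and none was counted lower, at a mean of 1.56 CPM. Little of its coding messenger could be counted: 92.2% of its coding bases also lie in exons of the readthrough gene URGCP-MRPS24, and the counter left out reads that fall on exons of more than 1 gene. The readthrough gene itself had 0 counts in all 12 libraries.

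The same limit touches other members. For 8 of the 78 genes at least 50% of the coding bases (GENCODE release 44) lie in exons of another gene of the count table. They are MRPL12 (96.0%), MRPL30 (100%), MRPL38 (94.1%), MRPL46 (72.8%), MRPL53 (100%), MRPS17 (100%), MRPS24 and MRPS28 (62.0%). Their median level was 6.02 CPM, against 57.1 CPM for the other 70, and 5 of the 6 members under 10 CPM are among them. What their counts measure is reads on the parts of the gene that no other gene shares, so the values of these 8 are not levels of the whole coding messenger. Among the 70 other members, 29 fell and 4 rose in EW8, with a median of -0.15, and 40 fell and 0 rose in TC71, with a median of -0.21.

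The difference between the lines in their response was tested as an interaction, which uses all 12 libraries and so shares them with the other comparisons. It passed edgeR's test for 8 members: 2 had a higher log2 fold change in TC71 than in EW8 and 6 a lower one, 2.56% and 7.69% of 78. Over all genes tested 12.2% were called higher and 7.07% lower, and over the abundant genes 19.5% and 10.5%; past an absolute value of 1, 1 member was lower, beside 2.87% of all genes. The first TC71 vehicle library decided much of this count. Without it, 23 members (29.5%) had a lower log2 fold change in TC71 and 0 a higher one, beside 14.1% and 9.45% of all genes tested. The median difference of the members went from -0.04 to -0.17, that of all genes from 0.03 to -0.06.

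Of the 6 with the lower value in TC71, MRPL44, which has a ribonuclease III-like fold, lay at 41.6, 43.8 and 46.7 CPM in EW8 vehicle and 40.9, 40.9 and 44.7 CPM with doxycycline. In TC71 it went from 58.7, 57.8 and 61.8 CPM to 45.8, 46.1 and 43.1 CPM, and the difference of the log2 fold changes was -0.34 (SE 0.099, edgeR adjusted p = 0.0211). The EW8 groups overlapped and the TC71 groups did not. MRPS7, a small subunit protein with a bacterial relative, fell in both lines but by 0.17 in EW8 and 0.44 in TC71 (difference -0.27, SE 0.076, edgeR adjusted p = 0.0189). The other four were MRPS24 (-2.02), MRPS12 (-0.40), MRPL45 (-0.32) and MRPL4 (-0.31).

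The 2 members with the higher value in TC71 fell in both lines, and by more in EW8. MRPL16 went from 61, 60.4 and 59.6 CPM to 40.7, 41.7 and 42.8 CPM in EW8 and from 57.4, 57.3 and 66.8 CPM to 54.6, 51.5 and 48.4 CPM in TC71. The difference was 0.30 (SE 0.10, edgeR adjusted p = 0.0464), and it was lost in 16 of 17 alternative settings. For MRPL19 it was 0.26 (SE 0.086, adjusted p = 0.0413), lost in 14 of 17.

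Under vehicle the lines differed in most of these genes, as they did in most abundant genes. This comparison shares its libraries with the doxycycline ones. Of the 78, 38 were higher and 24 lower in TC71 than in EW8 by edgeR's test, beside 28.2% and 33.5% of all genes tested and 39.4% and 38.1% of the abundant ones. The shares of members were 48.7% and 30.8%, and their median log2 difference was 0.21, beside -0.04 for all genes. Past an absolute log2 difference of 1, 5 were higher and 4 lower, beside 11.6% and 18.9% of all genes. Without the first TC71 vehicle library 46 were higher and 14 lower, with 31% and 29.8% of all genes.

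MRPL13 (ENSG00000172172.7), a large subunit protein with a bacterial relative, had the highest log2 difference. It lay at 69.5, 67 and 69.2 CPM in EW8 vehicle and 238, 212 and 224 CPM in TC71 vehicle, 3.28-fold higher (log2 difference 1.71, SE 0.060, edgeR adjusted p = 3.77e-14). MRPS7 was 2.27-fold higher in TC71, MRPS23 2.13-fold, MRPL10 2.09-fold and MRPL58, a peptidyl-tRNA hydrolase built into the large subunit, 2.09-fold. Their libraries did not overlap between the lines. Among the genes lower in TC71, MRPS12 lay at 0.482 of the EW8 level (adjusted p = 3.01e-09), MRPL51 at 0.488 (adjusted p = 8.49e-11) and MRPL30 at 0.538 (adjusted p = 7.66e-10). MRPL53 and MRPS24, both counted only in part, had log2 differences of -1.06 and -1.13; that of MRPS24 was -0.72 and no longer called without the second EW8 vehicle library (edgeR adjusted p = 0.103).

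The differences between the lines went with those of neighbouring genes. For each member the median log2 difference of other genes with a mean CPM of at least 10 within 5 Mb on either side was taken. Across the 78 members Pearson's r between this median and the member's own difference was 0.719 (rho 0.758), and 63 had the same sign. Without the first TC71 vehicle library the values were 0.695 and 0.735. Other genes were not described in this way, so whether these values are particular to the members was not tested. Neighbouring members share some of these genes, all values come from the same 6 libraries, and copy number was not measured here. MRPS12 (chromosome 19) had a neighbourhood median of -1.61 and MRPL51 (chromosome 12) of -1.20, while MRPL58 and MRPS7, neighbours on chromosome 17, shared a median of 0.37 and MRPS23 had 0.40. Of the 8 members on chromosome 17, 6 were higher in TC71 and 1 lower, with a median of 0.92 against -0.37 for all genes tested there. On that chromosome 23.2% of all genes tested were called higher and 43% lower. All 4 members on chromosome 7 were lower, with a median of -0.56, as for all genes tested there. On chromosome 7, 55.5% of all genes tested were called lower and 10.8% higher. For the doxycycline responses the same description gave r = 0.109 in EW8 and 0.164 in TC71.

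**Figure D4:**
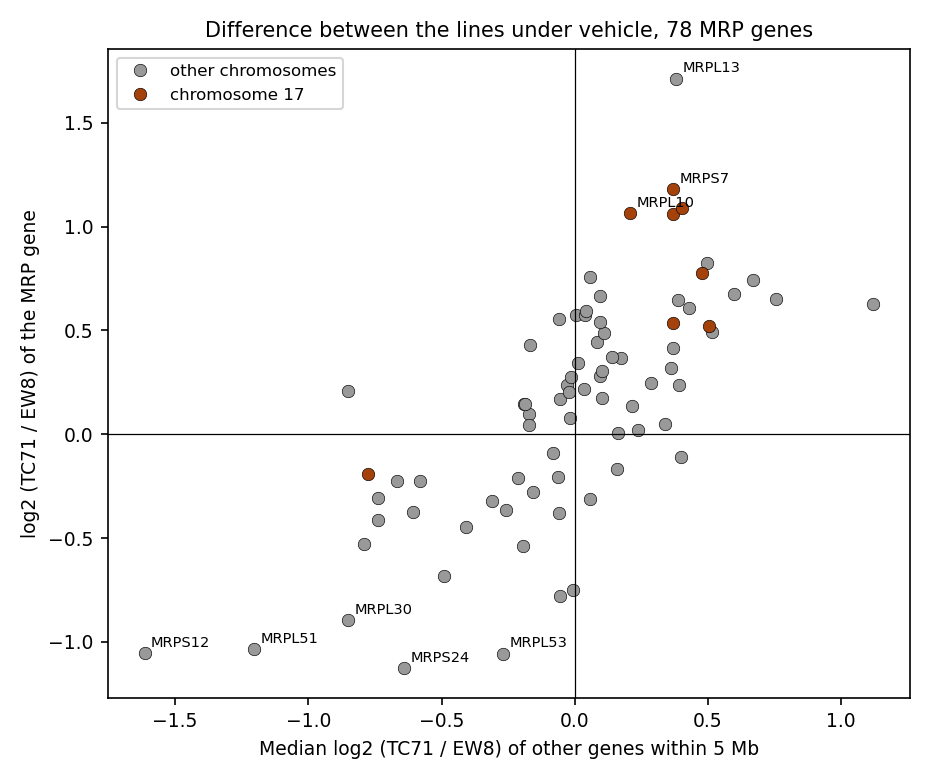
Log2 difference of TC71 from EW8 under vehicle for each of the 78 genes (vertical) against the median difference of other abundant genes within 5 Mb (horizontal); each point is 1 gene, and those on chromosome 17 are coloured. The points run from lower left, with MRPS12 at -1.61 and -1.05, to upper right, with MRPL13 the highest at 1.71.

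Of 27 assembly factors of the mitochondrial ribosome, 10 fell and 1 rose in EW8 and 14 fell and 1 rose in TC71, with medians of -0.18 and -0.28. The shares called lower were 37% in EW8, near the 35.6% of abundant genes, and 51.9% in TC71, beside 32.9%. Of abundant genes, 27% rose in EW8 and 34% in TC71. The lowest called were MRM2, a methyltransferase of the large ribosomal RNA, at -0.67 in EW8, and MRM1, another such methyltransferase, at -0.95 in TC71. FASTKD2 rose in EW8 (0.39) and NGRN in TC71 (0.29). Without the first TC71 vehicle library 19 fell and 0 rose in TC71, and 8 fell and 2 rose in EW8. Of all genes tested, 23.9% then fell and 22.1% rose in TC71, and 20.7% fell and 24.7% rose in EW8. Of 17 translation and messenger-handling factors, 8 fell (47.1%) and 1 rose in each line, and without that library 8 fell and 2 rose in each, with LRPPRC, which stabilises mitochondrial messengers, at -0.50 in EW8 and -0.56 in TC71, and GFM2, a recycling factor, higher in EW8 by 0.61 and MTRF1L, a release factor, higher in TC71 by 0.47. TUFM, the elongation factor that brings in the aminoacyl-tRNA, had -0.14 in EW8 (edgeR adjusted p = 0.0745) and fell by 0.42 in TC71 (adjusted p = 1.38e-05).

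Of 22 genes for mitochondrial aminoacyl-tRNA synthesis, 9 fell (40.9%, beside 35.6% of abundant genes) and 2 rose in EW8, and 14 fell (63.6%, beside 32.9%) and 1 rose in TC71. EARS2, for glutamate, had the lowest called value in EW8 (-0.76) and NARS2, for asparagine, in TC71 (-0.78). FARS2, for phenylalanine, rose in both lines, by 0.49 and 1.41 on the log2 scale, and GARS1, for glycine, rose in EW8 (0.61). Of 11 genes for transcription and copying of mitochondrial DNA, 8 fell in EW8 (72.7%) and 9 in TC71 (81.8%), with medians of -0.45 and -0.36 and the lowest values for the termination factor MTERF1 in EW8 (-0.74) and the polymerase subunit POLG2 in TC71 (-0.75). None rose, by edgeR's test, at an unadjusted p under 0.05 in the same test, or by DESeq2 (0 each). Of abundant genes, edgeR's test called 27% higher in EW8 and 34% in TC71. TFAM, which packages that DNA and takes part in starting its transcription, lay at 130, 119 and 123 CPM in EW8 vehicle and 79.3, 77.4 and 78.1 CPM with doxycycline. In TC71 it lay at 143, 130 and 145 CPM under vehicle and 91.5, 90.5 and 86 CPM with doxycycline. POLRMT, the mitochondrial RNA polymerase, had 0.04 in EW8 and fell by 0.35 in TC71 (edgeR adjusted p = 0.753 and 0.00218). Of 8 nuclear regulators tested, 4 fell in each line (50%, beside 35.6% and 32.9% of abundant genes). GABPA, NRF1 and the coactivator PPARGC1B were among them in both. Of 5 mitochondrial ribosomal proteins outside the MRP names, PTCD3 fell in both lines, by 0.35 and 0.56. The others passed the test in neither line. Without the first TC71 vehicle library, however, 3 of the 5 fell in TC71, beside 23.9% of all genes tested. In EW8, 1 then rose, beside 24.7%.

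For the transcripts made from mitochondrial DNA, no difference from the MRP genes was tested. Of the 13 protein-coding genes of that DNA, 0 passed edgeR's test in EW8 and 0 in TC71, and DESeq2 also called 0. At an unadjusted p under 0.05, edgeR had 0 in EW8 and 1, lower, in TC71. The medians were 0.05 and -0.26. The TC71 value rested on the first vehicle library. Without it 9 of the 13 (69.2%) were higher with doxycycline, 0 were lower and the median was 0.27. In EW8, whose spread is estimated with that library, 4 (30.8%) were then higher. Of all genes tested, 22.1% were then called higher in TC71 and 24.7% in EW8. Their summed level was 13419 to 14181 CPM with doxycycline in TC71, between that library and the other two. The 2 mitochondrial ribosomal RNAs, which libraries from polyadenylated RNA capture poorly, were called in neither line (0 also by DESeq2 and at an unadjusted p under 0.05), although 1 was higher in TC71 without that library, and both were lower in TC71 than in EW8 under vehicle (median log2 difference -1.45).

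The cytosolic ribosomal proteins served for comparison, as the other ribosome of the cell. Of 83 tested, 32 fell (38.6%, near the 35.6% of abundant genes) and 2 rose in EW8. In TC71, 71 fell (85.5%, beside 32.9% of abundant genes) and 2 rose. The medians were -0.12 in EW8 and -0.38 in TC71. RPL22 was the lowest called in EW8 (-0.38) and RPL13A in TC71 (-0.65), while RPLP1 (0.26) and RPS27L (0.90) were the highest. The first vehicle library of TC71 held 58333 CPM of these genes against 68068 and 69105 CPM in the other two. Without it 5 rose in EW8 and 1 in TC71, beside 24.7% and 22.1% of all genes tested. In the interaction 37 of the 83 (44.6%) had a lower value in TC71 and 1 a higher one, beside 10.5% and 19.5% of abundant genes. Without that library the counts were 74 (89.2%) and 1, beside 14.1% and 9.45% of all genes tested.

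Genes of the mitochondrial stress response, a set of chaperones, proteases and ATF4 targets known to rise when mitochondrial translation is blocked, were called in both directions in EW8. Of 18 tested, 7 fell (38.9%) and 2 rose (11.1%), beside 35.6% and 27% of abundant genes. Those that rose were GDF15 at 1.68 and the protease LONP1 at 0.33. Without the first TC71 vehicle library 7 fell and 5 rose (27.8%) in EW8, beside 20.7% of all genes called lower and 24.7% called higher. In TC71, 13 fell (72.2%) and 0 rose by edgeR's test, beside 32.9% and 34% of abundant genes, and the median was -0.65. At an unadjusted p under 0.05 in the same test, 15 were lower and 0 higher, and DESeq2 called 12 lower and 0 higher. PHGDH, the first enzyme of serine synthesis, was the lowest called in both lines, at -0.68 and -1.17. ATF4 itself lay at 457, 719 and 883 CPM in TC71 vehicle and at 499, 520 and 490 CPM with doxycycline, and the asparagine synthetase ASNS at 1.30, 3.87 and 6.11 CPM and 1.55, 1.89 and 1.57 CPM. The first vehicle library thus lay below the doxycycline libraries for both genes. Without it 17 of the 18 (94.4%) fell in TC71, beside 23.9% of all genes tested.

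**Figure D5:**
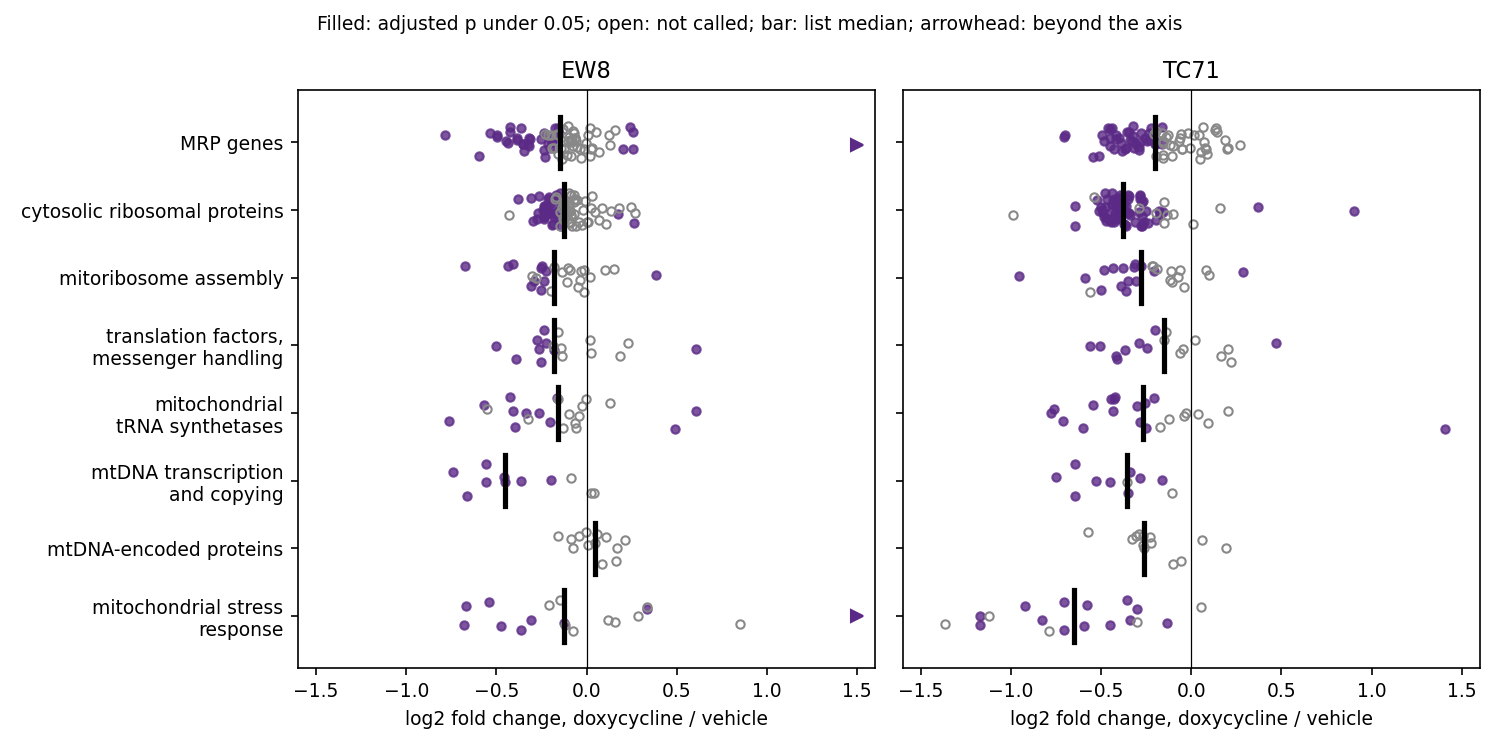
Log2 fold change with doxycycline in EW8 (left) and TC71 (right) for the mitochondrial ribosomal protein genes and 7 related lists; each point is 1 gene, filled where edgeR's adjusted p was under 0.05, and the bar is the list's median. Most lists lie left of 0 in both lines, with medians for the MRP genes of -0.15 and -0.20; arrowheads mark MRPS24 and GDF15 in EW8, beyond the axis.

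Within a cell these genes were of middling to high abundance and spread widely. Their median level over the 12 libraries was 53.9 CPM, above 78.8% of the genes tested, from 1.56 CPM for MRPS24 to 185 CPM for MRPL37. Per kilobase of exon, MRPS34 (73.9 CPM), MRPL37 (72.7 CPM) and MRPL51 (68.2 CPM) were highest. The lowest per kilobase were MRPL38, MRPS24 and MRPL46, all 3 among the genes whose coding bases are mostly shared with another gene. MRPS34, whose promoter holds the 3 ETS cores printed above, fell in TC71 by 0.32 on the log2 scale (SE 0.11, edgeR adjusted p = 0.0263) and had -0.14 in EW8 (adjusted p = 0.349). MRPS35, the one member with AP-1 letters in its promoter, fell in both lines, from 87.9, 87.7 and 84.9 CPM to 73.5, 74.0 and 73.6 CPM in EW8 and from 110, 103 and 102 CPM to 88.5, 86.2 and 84.1 CPM in TC71 (edgeR adjusted p = 0.00161 and 0.000255). MRPS9, with the NRF1 letters, went from 79.2, 72.2 and 77.6 CPM to 56.3, 55.8 and 58.9 CPM in EW8 and from 58.4, 48.1 and 52.5 CPM to 41.8, 39.9 and 43.2 CPM in TC71, so that the groups did not overlap in either line. MRPL47, with a YY1 and an ETS core, fell by 0.21 and 0.20 on the log2 scale (edgeR adjusted p = 0.0159 and 0.0218).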

How the data were processed

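Libraries from polyadenylated RNA (TruSeq stranded) were read from both ends. The authors aligned the reads with STAR to GRCh38 and, per the file headers, counted them with featureCounts 2.0.1 on the exons of GENCODE release 29 genes; the deposited values are raw counts per gene, one column per library. Its options for pairs, strand, multi-mapped reads and overlapping genes were off. Each mate was therefore counted alone (67.25% to 69.76% of the counts from 20 to 199 were even), strand was not used, and reads on exons of more than 1 gene or mapping to several places were left out. That lowers the counts of members that share exons with another gene (41 of 78) or have a named pseudogene (36 of 78).

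Symbols came from a GENCODE-based name table (99.12% of 58721 genes). Counts were filtered with filterByExpr, scaled by TMM and fitted with edgeR 4.0.16 (R 4.3.3) in 1 quasi-likelihood model of 4 groups over all 12 libraries, with Benjamini-Hochberg adjustment over the 21013 genes tested; a call is an adjusted p under 0.05. The study's fold limit, an absolute log2 fold change over 1, is given beside it. Libraries of 42860665 to 60853649 counts gave this precision: the median SE of a member's log2 fold change was 0.080 in EW8 and 0.080 in TC71.

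The members, related lists and tests were chosen with earlier results of these data known. Named were the lowest members called in both lines, those with the largest differences of response and between the lines, those past the fold limit, 8 members by role and the highest and lowest per kilobase; of related lists, the extreme called genes, TUFM, TFAM, POLRMT and the mitochondrially encoded genes. Other genes were named after their values were seen. Alternatives were DESeq2 1.42.0, other scalings, no filter, a replicate block, single lines and leaving out each library; the restrictions to members without shared exons or coding bases were added after seeing the data. The fit was tested on simulated data. Promoter windows and motif letters came from RefSeq promoters of GRCh38.p14.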

Additional observations from a re-analysis of the deposited data

Results flagged for a closer look

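The doxycycline responses of the lines differed for 8 members by edgeR's interaction test (TC71 minus EW8, log2). The values were -2.02 for MRPS24 (edgeR adjusted p = 0.00822), -0.40 for MRPS12, -0.34 for MRPL44, -0.32 for MRPL45, -0.31 for MRPL4, -0.27 for MRPS7, 0.26 for MRPL19 and 0.30 for MRPL16. The call for MRPS24 was kept in all 17 alternative settings, with values from -2.42 to -1.83, but rests on reads outside the coding bases it shares with URGCP-MRPS24. MRPS7 kept its call in 16, MRPL44 in 15, MRPS12 in 14, MRPL45 in 11 and MRPL4 in 10 of the 17. MRPL19 kept it in 3 and MRPL16 in 1. Without the first TC71 vehicle library the differences were larger for MRPS12 (-0.61), MRPL4 (-0.52), MRPL45 (-0.49), MRPL44 (-0.47) and MRPS7 (-0.41), and smaller for MRPL16 (0.14) and MRPL19 (0.14); the cause was not tested.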

How the results depend on the processing

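No result over the members changed direction in any setting. An absolute log2 fold change over 1 left 1 higher and 0 lower in EW8, 0 lower in TC71, 0 higher and 1 lower in the difference of the responses, and 5 higher and 4 lower between the lines. Scaling by library size alone gave 2 members higher in EW8, medians of -0.21 in EW8 and -0.30 in TC71, and 0 higher and 10 lower in the difference; DESeq2, median-ratio size factors and no filter each gave 0 higher there. With the replicate block the difference had 1 member higher and 4 lower, EW8 5 higher and 29 lower, TC71 40 lower, and the medians were -0.15 in EW8 and -0.20 in TC71, so the block moved no other count by over 1.5 times. Same-numbered libraries correlated at -0.17, 0.24 and 0.07 in EW8 and 0.03, 0.21 and -0.08 in TC71. With 3 libraries per group, these values cannot settle whether the numbers pair them. With only the 6 libraries of EW8, 8 members were higher in EW8 and the median was -0.10, and members sharing no exonic base had a median of -0.13 there.

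Leaving out each library in turn gave, in EW8, 17 to 29 members lower, 4 to 7 higher and a median of -0.16 to -0.094. In TC71 it gave 32 to 52 lower, 0 to 1 higher and a median of -0.31 to -0.19. In the difference it gave 2 to 23 lower, 0 to 2 higher and a median of -0.17 to -0.032, and between the lines 14 to 24 lower, 33 to 46 higher and a median of 0.17 to 0.34. The members' median minus that of all genes stayed between -0.14 and -0.10 in EW8 and between -0.29 and -0.19 in TC71 over 15 scalings and left-out libraries. Of the 29 members lower in both lines, 12 kept both calls in every setting. The cause of these shifts was not tested. Depth limits MRPS24, MRPL38 and MRPL53 most, the members counted lowest.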
